A study of Mus musculus with 18 samples.

Results

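The Myc, Max and Mxd network is a family of basic helix-loop-helix leucine zipper transcription factors that bind DNA in pairs, most of them paired with Max. Its 10 genes, Myc, Mycn, Max, Mxd1, Mxd3, Mxd4, Mxi1, Mnt, Mga and Mlx, were taken by symbol from an RNA table of 26599 genes, and each matched 1 row. The RNA came from MEL cells, a mouse erythroleukemia line in which dimethyl sulfoxide (DMSO) induces red cell genes. The libraries were 2 of cells kept for 5 days in 2% DMSO (day 5) and 2 of cells of the same line before DMSO (day 0), and the labels call them biological replicates. By colour and benzidine staining, 80 to 90% or more of the treated cells held hemoglobin, per the labels. The design has no culture kept for 5 days without DMSO, so DMSO and time in culture cannot be told apart. PU.1 ChIP-seq, DNase-seq and ChIA-PET of the same cells were not used here, because their regions are on mm9 and no gene coordinates on mm9 were at hand.

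Myc dimerizes with Max, binds the E-box CACGTG, and recruits acetyltransferase complexes that favour transcription. The Mxd proteins and Mnt compete for Max and for the same site, and bring in the SIN3 histone deacetylase complex, which represses. Myc is known as a driver of growth and ribosome production. Forced Myc expression is known to block the differentiation of MEL cells, while Mxd genes are known to be switched on as many cell types stop dividing.

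Of the 10 genes, 9 had a promoter window in the RefSeq table (GRCm38.p6), which runs from 250 bases before to 50 after each annotated start, and Myc had no entry. Mxi1 had 3 windows and the others had 1. The E-box CACGTG, which reads the same on both strands, was found in 4 of the 11 windows of members, against 7.15% of 32851 windows in the table. These were windows of 4 different members, and the windows of members were not matched to all windows by base composition. The sites are shown because this is the sequence that the Myc-Max and Mxd-Max dimers are known to bind, with the E-box in capitals and 12 bases on each side, 5′ to 3′ on the strand of the gene. The first base of the E-box lay 219 bases before the start of Mxd4 (minus strand, chr5:34187912-34187941), 3 before that of Max (minus strand, chr12:76962234-76962263), 123 before that of Mnt (plus strand, chr11:74830789-74830818) and 40 before that of Mlx (plus strand, chr11:101087238-101087267).
Mxd4: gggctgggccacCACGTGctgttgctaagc
Max: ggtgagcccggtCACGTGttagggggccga
Mnt: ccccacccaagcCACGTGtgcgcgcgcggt
Mlx: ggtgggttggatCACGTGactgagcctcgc

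The 250 bases before the start of Mxd4 (chr5:34187711-34187960) and Mxd1 (chr6:86669160-86669409), both on the minus strand of GRCm38.p6, are given because these were the members that rose. Only the first holds the E-box, in capitals, and 58% of the bases upstream of Mxd4 and 78.4% of those upstream of Mxd1 were G or C. GATAA, the core that GATA factors are known to bind, was searched on both strands. It was found in 1 of the 11 windows of members, against 25.4% of all windows. This was the window of Mxd1, with the first base of GATAA at position 11 after the start and so outside the stretch shown. Here too the windows were not matched by base composition. These matches are descriptions of sequence, and binding was not measured.
Mxd4: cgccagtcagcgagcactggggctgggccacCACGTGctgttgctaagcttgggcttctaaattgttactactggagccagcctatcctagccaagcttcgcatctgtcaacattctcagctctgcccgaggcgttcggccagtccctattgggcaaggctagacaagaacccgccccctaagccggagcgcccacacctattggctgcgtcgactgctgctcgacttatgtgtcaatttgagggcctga
Mxd1: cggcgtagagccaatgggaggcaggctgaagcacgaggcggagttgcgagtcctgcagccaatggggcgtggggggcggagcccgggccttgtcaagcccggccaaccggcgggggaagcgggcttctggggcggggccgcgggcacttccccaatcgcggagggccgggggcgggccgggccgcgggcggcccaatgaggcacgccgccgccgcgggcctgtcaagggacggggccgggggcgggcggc

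RNA levels were in FPKM, by definition fragments scaled to transcript length and library size. The labels do not describe how these values were computed, so comparisons between genes of a library rest on that definition. The 4 columns summed to between 758150 and 787494 FPKM, and read depth is unknown. Of 12 erythroid marker genes, 10 passed as higher on day 5 in limma and 0 as lower (12 and 0 at an unadjusted p under 0.05). Over all genes tested, 10.7% passed as higher and 7.81% as lower (38.6% in either direction at an unadjusted p under 0.05). With no filter on low FPKM, 2 of the 12 passed as higher in limma (12 at an unadjusted p under 0.05). Markers of other cells were low, apart from those of megakaryocytes. The summed level of 11 myeloid markers was 4.14 and 16.1 FPKM on day 5, against 21.4 and 14.4 FPKM on day 0. Of the 11, 6 were listed at 0 in all 4 libraries, and the 3 tested had log2 fold changes from -2.59 to 0.18. The summed level was at most 0.474 FPKM on day 5 and 6.12 on day 0 for 8 lymphoid markers, 0.382 and 10.2 for 6 mast cell markers, and 0.25 and 0.957 for 9 fibroblast and epithelial markers. The 7 megakaryocyte markers summed to 137 and 114 FPKM on day 5, against 57.8 and 18.0 FPKM on day 0, most of it from Itga2b on day 5. Of 3 tested megakaryocyte markers, 1 passed as higher in limma. Of the tested markers, 1 of 3 myeloid, 1 of 1 lymphoid and 1 of 1 mast cell passed as lower. The part of these cell types in the results was not tested. In such bulk RNA, fewer cells that express a gene and less RNA per cell cannot be told apart.

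After 5 days in DMSO, Myc and Max fell while Mxd4 and Mxd1 rose. The test took in every gene that reached 1 FPKM in 2 or more of the 4 libraries, which were 9 of the members, all but Mycn. Of these 9, 2 rose, 2 fell and 5 did not pass a Benjamini-Hochberg adjusted p of 0.05 over all 10736 genes tested (limma on log2(FPKM + 1)). Over all genes tested 18.5% passed, 10.7% higher and 7.81% lower, and the median log2 fold change was 0.15. The libraries of day 5 all lay outside the range of day 0 for 8 of the 9 members, 5 higher and 3 lower, against 67.2% of all genes tested (40.2% higher and 27% lower). The split of calls over all genes depends on the scaling. It was 1150 higher and 839 lower with the deposited values, 814 and 895 after quantile normalization (median log2 fold change 0.01), 714 and 1389 after median centring (-0.09), and 1489 and 695 with globin and mitochondrially encoded genes removed (0.26). Each of the 4 calls among the members held under these scalings. With no filter on low FPKM, and with any 1 library left out and the same genes tested, none of the 4 passed in limma, although each kept its direction. At an unadjusted p under 0.05, 6 members passed with the filter and 5 without it, against 38.6% of all genes tested with the filter and 26.5% without it.

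**Figure D1:**
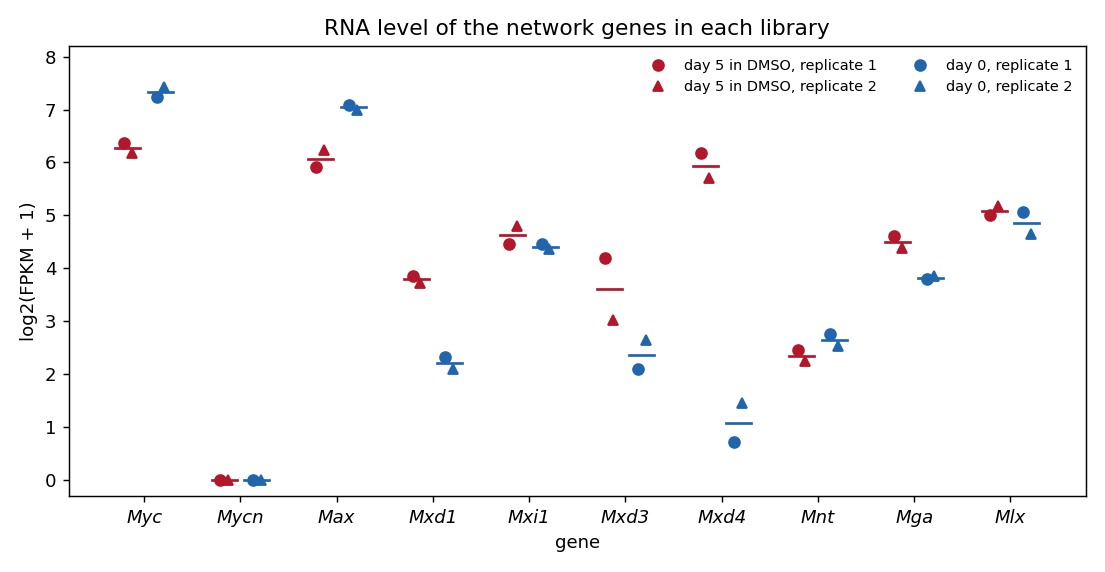
RNA level of each network gene as log2(FPKM + 1), with day 5 in red left of day 0 in blue, circles for replicate 1, triangles for replicate 2 and a bar at the mean of the 2 libraries. Myc and Max lie lower and Mxd1 and Mxd4 higher on day 5, and Mycn is listed at 0 in all 4 libraries.

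Myc (ENSMUSG00000022346.8), the activator of the network, stood at 81.3 and 71.8 FPKM in the day 5 libraries, against 149 and 172 FPKM in the day 0 libraries. The highest day 5 library held less than the lowest day 0 library, and the mean was 2.10-fold higher on day 0. On the log2 scale Myc fell by 1.06 (log2 fold change -1.06 ± 0.17 SE, limma adjusted p = 0.0222). It had the highest mean of the members on either day, although on day 5 its libraries overlapped those of Max. Mycn (ENSMUSG00000037169.8), the activator known from neural and embryonic tissue, was listed at 0 in all 4 libraries and was not tested.

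Max (ENSMUSG00000059436.5), the partner that Myc, Mxd proteins, Mnt and Mga share, had 59.1 and 74.1 FPKM on day 5, against 136 and 127 FPKM on day 0. Its days did not overlap either. The mean was 66.6 ± 10.6 FPKM on day 5 and 131 ± 6.18 FPKM on day 0 (SD, n = 2 each), with a log2 fold change of -0.98 ± 0.19 SE (limma adjusted p = 0.0298). Max did not pass with eBayes run without a trend (0.0528). Relative to Max, Myc stood at 1.37 and 0.970 times its level on day 5, against 1.10 and 1.35 times on day 0, and these ranges overlap.

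Among the Mxd genes, Mxd4 had the largest change of the tested members. Mxd4 (ENSMUSG00000037235.7), which encodes the repressor also called Mad4, had 71.1 and 51.3 FPKM on day 5, against 0.657 and 1.73 FPKM on day 0. It was the member with the lowest level above 0 on day 0, while on day 5 it overlapped Max. The mean was 61.2 ± 14.0 FPKM on day 5 and 1.20 ± 0.761 FPKM on day 0 (SD, n = 2 each), a ratio of 51.2, and the lowest day 5 library was 29.6-fold above the highest day 0 library. The log2 fold change was 4.85 ± 0.35 SE (limma adjusted p = 0.0052). Its size depends on the low day 0 values: it was 5.68 with a pseudocount of 0.1, and 4.49 to 5.21 with 1 library left out.

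Mxd1 (ENSMUSG00000001156.7), which encodes the repressor also called Mad1, had 13.5 and 12.3 FPKM on day 5, against 4.00 and 3.26 FPKM on day 0. Its replicates lay close together and the days were well apart, with a mean 3.55-fold higher on day 5. The log2 fold change was 1.59 ± 0.26 SE (limma adjusted p = 0.0226).

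Mxd3 (ENSMUSG00000021485.7), known from proliferating cells in S phase, had 17.4 and 7.13 FPKM on day 5, against 3.30 and 5.24 FPKM on day 0. The days did not overlap, but the day 5 replicates differed 2.44-fold. Mxd3 did not pass (log2 fold change 1.24 ± 0.47 SE, limma adjusted p = 0.117), and its log2 fold change was 0.65 without day 5 replicate 1 and 1.83 without day 5 replicate 2. Mxi1 (ENSMUSG00000025025.7), which encodes the repressor also called Mad2, had 21.0 and 26.7 FPKM on day 5, against 21.0 and 19.7 FPKM on day 0. Its days were only just apart, with the closest libraries at nearly the same level. The log2 fold change was 0.21 ± 0.22 SE with a 95% interval of -0.34 to 0.76 (limma adjusted p = 0.51), and it turned to -0.032 after median centring.

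**Figure D2:**
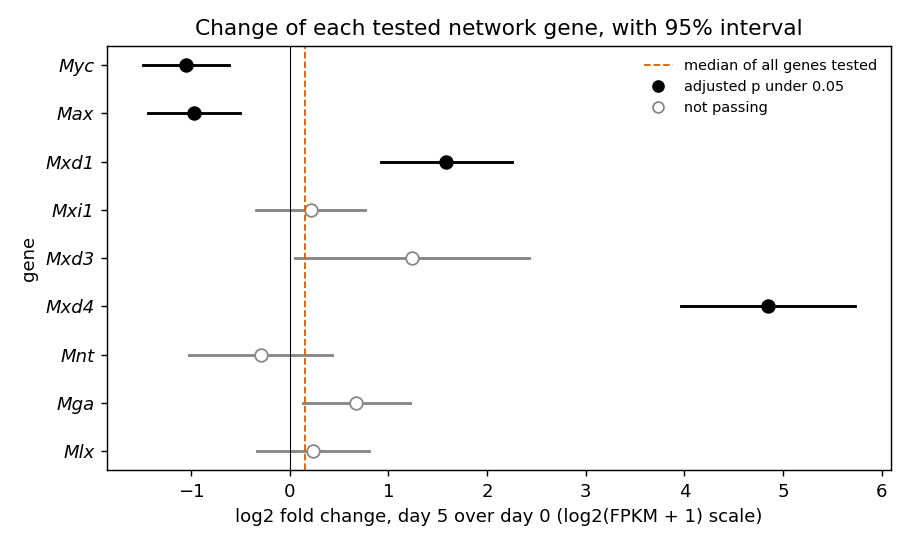
Log2 fold change of day 5 over day 0 with its 95% interval from limma for the 9 tested members, filled where the adjusted p was under 0.05, with the dashed line at the median of all genes tested. Myc and Max lie below 0 and Mxd1 and Mxd4 above it with filled points, while the interval of Mxd3 reaches from 0.06 to 2.42. The intervals are not adjusted over the genes tested.

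None of the remaining members passed. Mnt (ENSMUSG00000000282.6), a broadly expressed repressor that also pairs with Max, was the lowest member above 0 on day 5. It had 4.47 and 3.76 FPKM on day 5, against 5.80 and 4.78 FPKM on day 0 (log2 fold change -0.30 ± 0.29 SE, 95% interval -1.02 to 0.43, limma adjusted p = 0.485). Mga (ENSMUSG00000033943.9), a large protein that pairs with Max and also carries a T-box domain, had 23.3 and 20.0 FPKM on day 5, against 12.9 and 13.5 FPKM on day 0. Its days were apart, but it did not pass (log2 fold change 0.67 ± 0.22 SE, 95% interval 0.13 to 1.21, limma adjusted p = 0.0822). The interval is not adjusted over the genes tested, and the unadjusted limma p was 0.024. Mlx (ENSMUSG00000017801.9), which does not bind Max and pairs instead with Mondo proteins, Mnt and some Mxd proteins, had 31.2 and 35.1 FPKM on day 5, against 32.5 and 24.0 FPKM on day 0. The ranges of the days overlap (log2 fold change 0.24 ± 0.23 SE, 95% interval -0.33 to 0.81, limma adjusted p = 0.478, -0.0083 after median centring).

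Sorted by mean level, the order on day 5 was Myc, Max, Mxd4, Mlx, Mxi1, Mga, Mxd1, Mxd3, Mnt and Mycn. Neighbours whose libraries overlapped were Myc and Max, Max and Mxd4, Mxi1 and Mga, and Mxd1 and Mxd3. On day 0 the order was Myc, Max, Mlx, Mxi1, Mga, Mnt, Mxd3, Mxd1, Mxd4 and Mycn. There the overlapping neighbours were Mnt with Mxd3 and Mxd3 with Mxd1. Mxd4 thus stood in place 3 on day 5 and in place 9 on day 0.

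The composition of the RNA for Max partners (Myc, Mycn, the 4 Mxd genes, Mnt and Mga) differed between the days, which is given as a description with no test. Myc made up 35.0% and 37.2% of the summed FPKM of these genes on day 5, against 75.8% and 78.1% on day 0. The Mxd genes together made up 53.0% and 50.5% on day 5, against 14.7% and 13.6% on day 0. Mxd4 alone gave 30.6% and 26.6% on day 5, against 0.334% and 0.788% on day 0. The Mnt share was 1.93% and 1.95% on day 5, against 2.95% and 2.17% on day 0, and that of Mga 10.1% and 10.4%, against 6.54% and 6.14%. The sum over all of these partners was 232 and 193 FPKM on day 5, against 197 and 220 FPKM on day 0, and these ranges overlap. The Mxi1 share overlapped as well, at 9.05% and 13.8% on day 5, against 10.7% and 8.94% on day 0. Set against Max, the partner sum was 3.93 and 2.60 times the Max level on day 5, against 1.45 and 1.73 times on day 0.

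**Figure D3:**
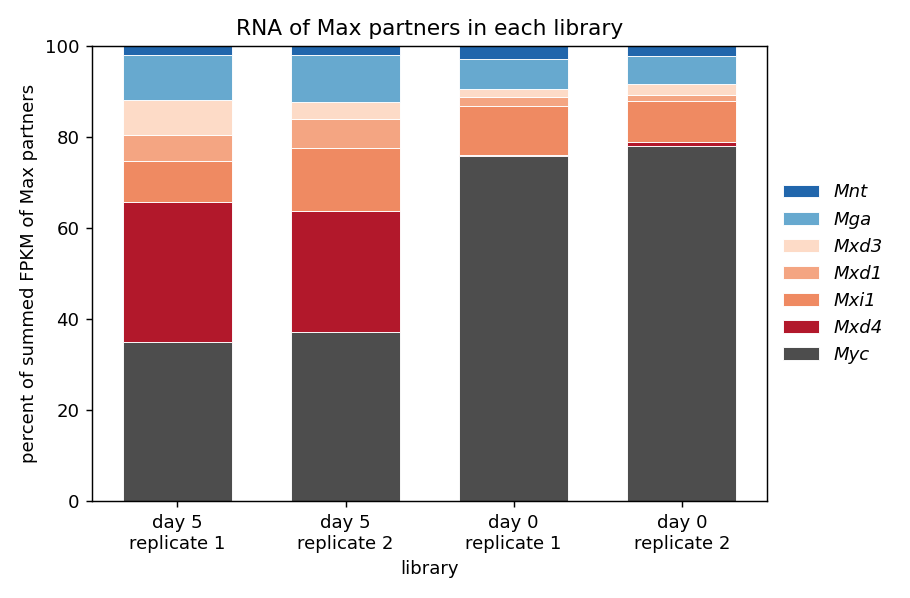
Share of each Max partner in the summed FPKM of the partners, in percent, in each of the 4 libraries, with day 5 on the left. Mycn is listed at 0 and has no segment, Myc takes under 40% of the bar in the day 5 libraries and over 75% in the day 0 libraries, and the Mxd4 segment is barely visible on day 0.

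The summed level of the Mxd genes was 123 and 97.4 FPKM on day 5, against 28.9 and 29.9 FPKM on day 0. Without Mxd4 the sum was 51.9 and 46.1 FPKM on day 5, against 28.3 and 28.2 FPKM on day 0, so the other Mxd genes together were also higher on day 5 in both libraries. The ratio of Myc to the summed Mxd level was 0.661 and 0.738 on day 5, against 5.15 and 5.74 on day 0. Without Mxd4 it was 1.57 and 1.56 on day 5, against 5.27 and 6.10 on day 0, so the days were apart without that gene as well. Within the Mxd group the leading gene differed: Mxd4 gave 57.8% and 52.6% of the Mxd level on day 5, against 2.27% and 5.80% on day 0. Mxi1 gave 17.1% and 27.4% on day 5, against 72.5% and 65.8% on day 0. These are RNA levels, and protein or dimers were not measured.

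Genes known as Myc targets were listed from general knowledge of other cell types, with earlier results of these data known. The shares of the activated and repressed lists are thus a description, and no set test was run. Of 63 tested genes described as activated by Myc, 38 fell, 2 rose and 23 did not pass, with a median log2 fold change of -1.10. The share that fell was 60.3%, against 7.81% of all genes tested. With the filter raised to 5 FPKM, 41 of 62 tested genes of the list fell, against 902 of all 8751 genes tested. The list was not matched to all genes by level. Together the 64 genes of the list held 11969 and 11543 FPKM on day 5, against 23241 and 23227 FPKM on day 0. The genes with the largest decreases that passed were Hk2, which starts glycolysis, at 6.71 and 8.06 FPKM on day 5 and 46.0 and 26.4 FPKM on day 0 (log2 fold change -2.10), the glucose transporter gene Slc2a1 (-2.04) and Shmt1 of serine and glycine metabolism (-2.02). The members of the list that rose were Tfrc, the transferrin receptor that red cell precursors use to take up iron, at 552 and 628 FPKM on day 5 and 120 and 127 FPKM on day 0 (log2 fold change 2.24), and the D-type cyclin gene Ccnd2 (1.36). Tfrc is also in the list of erythroid markers.

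Of 19 tested genes described as repressed by Myc, 8 rose, 0 fell in limma (0 at an unadjusted p under 0.05) and 11 did not pass, with a median log2 fold change of 0.94. The share that rose was 42.1%, against 10.7% of all genes tested. Log2 fold changes in the list ran from -0.52 to 4.91. After quantile normalization 6 genes rose and after median centring 7, each with 0 lower in limma (1 lower at an unadjusted p under 0.05). Btg2, which restrains proliferation, had 73.2 and 70.3 FPKM on day 5, against 2.80 and 0.537 FPKM on day 0 (log2 fold change 4.91). Gadd45a, a stress and growth arrest gene, had 72.3 and 109 FPKM on day 5, against 7.43 and 6.52 FPKM on day 0 (3.50), and the metabolic regulator gene Txnip had 284 and 201 FPKM, against 46.7 and 34.8 FPKM (2.54). With no filter on low FPKM, 8 genes of the activated list fell and 1 rose, and 0 genes of the repressed list passed in limma (43, 2 and 10 at an unadjusted p under 0.05). With 1 library left out and the same genes tested, 0 genes of either list passed in limma, while 39 to 43 of the activated list were lower and 8 to 12 of the repressed list higher at an unadjusted p under 0.05.

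**Figure D4:**
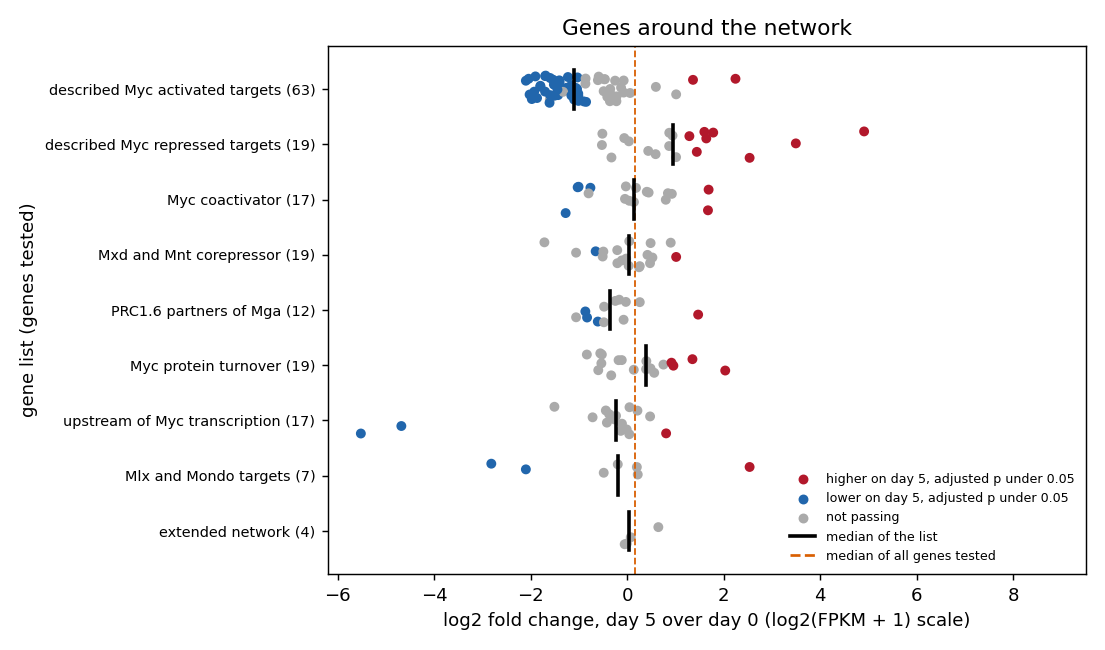
Log2 fold change of day 5 over day 0 for each tested gene of 9 lists around the network, red where higher and blue where lower with an adjusted p under 0.05, grey where not passing, with the median of each list as a black bar and that of all genes tested as a dashed line. The bar lies at -1.10 for described Myc activated targets and at 0.94 for described Myc repressed targets, against 0.15 for all genes.

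The partners that Myc recruits did not move one way. Of 17 tested coactivator genes, 4 fell, 2 rose and 11 did not pass, with a median of 0.14. The shares were 23.5% lower and 11.8% higher, against 7.81% and 10.7% of all genes tested, and with no filter on low FPKM 1 fell and 0 rose in limma (5 and 4 at an unadjusted p under 0.05). Ruvbl2, Actl6a and Ruvbl1, subunits of the INO80 and TIP60 complexes, fell with log2 fold changes of -1.28, -1.03 and -1.01. Trrap, the large scaffold that Myc contacts, had 30.3 and 45.4 FPKM on day 5, against 13.2 and 8.85 FPKM on day 0 (1.69). The acetyltransferase gene Kat2b rose as well (1.67). Its paralog Kat2a, named after its values were seen, had 30.4 and 31.1 FPKM on day 5, against 53.1 and 52.7 FPKM on day 0. Kat2a fell (-0.76, limma adjusted p = 0.0398). Without the eBayes trend 2 genes of the list passed as lower. Kat2b did not pass after quantile normalization, and Ruvbl1 did not pass without the eBayes trend.

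Of 19 tested genes of the SIN3 and NCoR corepressors that Mxd and Mnt recruit, 1 rose, 1 fell and 17 did not pass, with a median of 0.03. Either share was 5.26%, which is 1 gene, against 10.7% higher and 7.81% lower of all genes tested. At an unadjusted p under 0.05, 2 were higher and 5 lower in limma, against 38.6% of all genes tested in either direction. Sin3b, a scaffold that Mxd proteins contact, had 135 and 137 FPKM on day 5, against 64.9 and 68.6 FPKM on day 0 (log2 fold change 1.01 ± 0.16 SE, limma adjusted p = 0.0196). Its paralog Sin3a, named after its values were seen, had 61.3 and 45.6 FPKM on day 5, against 41.1 and 37.5 FPKM on day 0 (0.42, limma adjusted p = 0.208). Rbbp7, a histone-binding subunit, fell (-0.65) with a limma adjusted p of 0.0499, a call lost with a pseudocount of 0.1 and under several further settings.

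Mga is known to act in a Polycomb complex called PRC1.6. Of 12 tested genes of that complex, 3 fell, 1 rose and 8 did not pass, with a median of -0.36. The shares were 25% lower and 8.33% higher, against 7.81% and 10.7% of all genes tested. Ring1, a ubiquitin ligase of Polycomb complexes, had 20.7 and 16.0 FPKM on day 5, against 6.94 and 5.03 FPKM on day 0 (log2 fold change 1.47). The E2F partner gene Tfdp1 (-0.87), Yaf2 (-0.83) and the heterochromatin protein gene Cbx3 (-0.61) fell. The limma adjusted p was 0.0467 for Yaf2 and 0.0499 for Cbx3, and neither passed with a pseudocount of 0.1. Without the eBayes trend none of the 3 passed as lower, and with no filter on low FPKM neither they nor Ring1 passed. Hdac1, Hdac2 and Wdr5 are in this list and in a list above.

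Of 7 listed relatives and partners of the network outside the 10 genes, 4 were tested and 0 passed in limma, with 0 also under an unadjusted p of 0.05. Mycl1, a Myc relative, and Mlxipl, a Mondo gene, were at or near 0 in all 4 libraries. The most abundant were Usf1 and Usf2, E-box factors that do not pair with Max, with log2 fold changes of 0.07 for Usf1 and -0.0087 for Usf2. Of 7 tested genes known as targets of the Mlx-Mondo dimers, Txnip rose and Pklr (-2.82), the pyruvate kinase gene of red cells and liver, and Hk2 fell, with a median of -0.20. The shares were 14.3% higher and 28.6% lower of these few genes, against 10.7% and 7.81% of all genes tested. With no filter on low FPKM limma called 0 of them (3 at an unadjusted p under 0.05). Txnip and Hk2 are also in the lists of described Myc targets above.

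Genes that act on Myc protein or on transcription of Myc were listed too. Of 19 tested genes of Myc protein turnover and phosphorylation, 4 rose, 0 fell in limma (3 at an unadjusted p under 0.05) and 15 did not pass, with a median of 0.39. The share that rose was 21.1%, against 10.7% of all genes tested, and with no filter on low FPKM 0 rose in limma (6 at an unadjusted p under 0.05). Pim1, a kinase gene, had 166 and 151 FPKM on day 5, against 46.4 and 31.1 FPKM on day 0 (log2 fold change 2.03), Gsk3b, the kinase that marks Myc for degradation, had 64.7 and 52.4 FPKM, against 28.4 and 17.3 FPKM (1.35), and Pim2 rose (0.96) with a limma adjusted p of 0.0491, a call lost after quantile normalization and under several further settings. Gsk3b did not pass without the eBayes trend. After median centring 2 genes of this list rose and 3 fell. Of 17 tested entries for regulators of Myc transcription, 2 fell, 1 rose and 14 did not pass, with a median of -0.23. The shares were 11.8% lower and 5.88% higher, against 7.81% and 10.7% of all genes tested, and with no filter on low FPKM 0 fell and 0 rose in limma (5 and 3 at an unadjusted p under 0.05). Myb, a progenitor factor, had 1.06 and 2.51 FPKM on day 5, against 58.6 and 79.1 FPKM on day 0 (-4.68), and Ctnnb1, which encodes beta-catenin, rose (0.81) but did not pass after median centring or without the eBayes trend. An Nme2 entry (ENSMUSG00000020857.5) had -5.52, and a further entry of that symbol (ENSMUSG00000091228.1) had -0.13 (limma adjusted p = 0.852), so reads may have been split between them and the change is uncertain.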

How the data were processed

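The authors deposited 1 table of FPKM for each gene in the 4 libraries, which is what was used. The submitters' processing notes name Bowtie and mm9, and the step from reads to FPKM is not described in the labels. Libraries were stranded, per the labels' protocols. Because an FPKM of 0 may be a failed estimate, such genes are called listed at 0. The deposited values are FPKM with no read counts, so depth is unknown.

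Genes at 1 FPKM or more in 2 libraries were put on the scale log2(FPKM + 1), which understates the change of low genes, and tested for day 5 minus day 0 with lmFit and eBayes (trend on, two-sided) of limma 3.58.1 under R 4.3.3. P-values were adjusted over every tested gene by Benjamini-Hochberg, with 0.05 as the limit. The fit was tested on simulated data. Promoter windows came from RefSeq (GRCm38.p6).

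The members and the gene lists were chosen with earlier results of these data known. Named were all members and, of each other list, up to 3 called genes with the largest change per direction, or the 2 most abundant where none was called. For markers, counts and sums are given, and Itga2b was named outside this rule. The labels do not say how the biological replicates were separated, so p-values rest on the spread between these libraries. For each gene eBayes moderated that spread with the spread of the other genes (prior degrees of freedom 3.34, residual 2). Each SE is moderated likewise.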

Additional observations from a re-analysis of the deposited data

How the results depend on the processing

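With no filter on low FPKM, limma called 120 genes higher and 117 lower, and among the members 0 higher and 0 lower (5 of 9 members at an unadjusted p under 0.05). Median centring gave 714 genes higher and 1389 lower. Without the eBayes trend 1 member, Myc, passed as lower. With 1 library left out and the same genes tested, between 0 and 2 genes passed as higher, between 0 and 11 as lower, and 0 members in limma (2504 to 3440 genes at an unadjusted p under 0.05). The lone library of a day was then assumed to vary like those of the other day. With the filter redone on the other 3 libraries, chosen after seeing the data, 136 genes were higher and 35 lower without day 0 replicate 1, 13 and 6 without day 0 replicate 2, 274 and 351 without day 5 replicate 1, and 491 and 536 without day 5 replicate 2. In these, 1 member, Mxd4, passed as higher in each, and between 0 and 1 as lower (Max, without day 5 replicate 2). Leaving Mga out moved the mean Myc share of partners to 40.2% on day 5 and 82.2% on day 0 (36.1% and 76.9% with it) and the Mxd share to 57.6% and 15.1% (51.7% and 14.2%). The directions that turned were of genes that did not pass. After median centring Mlx had -0.0083, Mxi1 -0.032 and Usf1 -0.17, after quantile normalization Usf1 had -0.13 and the further Nme2 entry 0.015, and with globin and mitochondrially encoded genes removed Usf2 had 0.11. With 1 library left out Usf1 ranged from -0.50 to 0.65, Usf2 from -0.20 to 0.18 (0.019 without day 5 replicate 1) and the further Nme2 entry (ENSMUSG00000091228.1) from -0.79 to 0.52 (0.13 without day 5 replicate 2). The cause was not tested. With the replicate number as a replicate block, 988 genes were higher and 809 lower, and the same 4 members passed. Of the other called genes that the naming rule gave, Ctnnb1, Pim2, Yaf2, Rbbp7 and Cbx3 did not pass. Of the 17 coactivator genes, 3 then passed as lower. The labels do not say that the numbers pair the cultures, and the deviations of replicate 1 from the mean of its day correlated at 0.048 between days across genes. The planned views of member loci in the other assays were not run.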

Other observations

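Likeness to Myc and to Mxd4 was measured as the Euclidean distance between log2(FPKM + 1) values centred over the 4 libraries, among 7750 named genes that averaged 5 FPKM or more. The measure rests on 4 values a gene and says nothing of shared function or control. Nearest to Myc were Psmd14, a proteasome lid gene, at 120 and 105 FPKM on day 5 and 213 and 253 FPKM on day 0 (distance 0.035), Lrp8, a lipoprotein receptor gene (distance 0.0567), and Mrpl20, a mitochondrial ribosomal protein gene (distance 0.057). Nearest to Mxd4 were Csf2rb2, a cytokine receptor chain gene, at 52.0 and 43.3 FPKM on day 5 and 1.20 and 1.36 FPKM on day 0 (distance 0.641), Abat, which breaks down GABA (distance 0.739), and Hist1h2bn, whose level is uncertain because histone genes have near-identical copies (distance 0.772). Csf2rb2 has a close paralog, Csf2rb, so its level is uncertain in the same way.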
